A study of Mus musculus with 6 samples.

Results

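The nuclear genes of mitochondrial ribosomal proteins were compared between NKG2D+ and NKG2D- CD8 T cells. Members are all genes whose symbol begins with Mrpl or Mrps followed by a number. The rule took 76 of the 23284 genes in the deposited count tables, and all 76 had enough counts to be tested among 12951 genes. RNA was sequenced from lymph node cells of C3H/HeJ mice, an inbred strain, sorted by flow cytometry. NKG2D+ cells were CD3+CD8+CD44+CXCR3+ and carried NKG2D, an activating receptor encoded by Klrk1. NKG2D- cells shared the other 4 surface markers and lacked NKG2D. Each population gave 3 libraries, and the populations are described as coming from 3 separate mice. The labels give no age, sex, treatment or disease state.

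Mitochondria carry their own ribosome, the mitoribosome, which makes the few proteins of the respiratory chain that mitochondrial DNA encodes. Its RNAs come from mitochondrial DNA, whereas its proteins are encoded in the nucleus, made by cytosolic ribosomes and imported. Many of these proteins descend from bacterial ribosomal proteins and others were added in the evolution of mitochondria. T cells are known to expand their mitochondrial content and mitochondrial protein synthesis when they are activated.

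Libraries held 63232698, 89184611 and 73989561 gene counts for NKG2D+ replicates 1, 2 and 3, and 41168816, 59235219 and 67315805 for NKG2D- replicates 1, 2 and 3. Klrk1 stood at 409, 312 and 342 CPM, counts scaled to a fixed library total, in NKG2D+ cells, against 34.5, 37.1 and 36.1 CPM in NKG2D- cells. The sort marker rose by a log2 fold change of 3.30 (SE 0.12), for which edgeR's quasi-likelihood test returned an adjusted p of 0.000185. An exact permutation of the libraries (two-sided) returned p = 0.1, which is the lowest for 3 against 3. Without both libraries of replicate 3, edgeR gave Klrk1 an adjusted p of 0.105. Cd8a, a chain of CD8, had 1134 to 1934 CPM in NKG2D+ cells and 1187 to 1225 CPM in NKG2D- cells. Cd44, a marker of the shared gate, had 430, 177 and 224 CPM in NKG2D+ cells, against 137, 136 and 133 CPM in NKG2D- cells. Its populations did not overlap, and edgeR gave an adjusted p of 0.130. In bulk samples such as these, fewer cells of a type and less RNA per cell cannot be told apart. Between 401 and 5817 reads per library were assigned to each member.

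The sequence around the transcription start is shown for the 3 genes related to bacterial S18, whose log2 fold changes ran from -0.42 to -0.01, and for Mrpl9, the member with the most counts. The windows are 300 bases long and run from 250 bases before to 50 bases after the RefSeq start, on the gene's strand, 5′ to 3′. They come from RefSeq on GRCm38.p6, whereas the submitters' processing notes name mm9 for the counts. Capitals mark 3 motifs searched on both strands, with overlapping matches counted: GCATGCGC, the core of the motif of NRF1, CCGGAAG, the core of the motif of ETS factors, and AAGATGGCG, the motif of YY1. These 3 kinds of factor are known regulators of nuclear genes for mitochondrial proteins. Mrps18b lies at chr17:35916391-35916690 on the minus strand, Mrps18a at chr17:46110754-46111053 on the plus strand, Mrps18c at chr5:100798509-100798808 on the plus strand and Mrpl9 at chr3:94443086-94443385 on the plus strand.
Mrps18b: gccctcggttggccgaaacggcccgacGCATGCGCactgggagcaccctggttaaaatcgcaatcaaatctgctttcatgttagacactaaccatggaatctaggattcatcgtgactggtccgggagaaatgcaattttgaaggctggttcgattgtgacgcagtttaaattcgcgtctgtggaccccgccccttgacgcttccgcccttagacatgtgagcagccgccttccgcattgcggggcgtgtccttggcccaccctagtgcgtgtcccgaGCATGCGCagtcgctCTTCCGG
Mrps18a: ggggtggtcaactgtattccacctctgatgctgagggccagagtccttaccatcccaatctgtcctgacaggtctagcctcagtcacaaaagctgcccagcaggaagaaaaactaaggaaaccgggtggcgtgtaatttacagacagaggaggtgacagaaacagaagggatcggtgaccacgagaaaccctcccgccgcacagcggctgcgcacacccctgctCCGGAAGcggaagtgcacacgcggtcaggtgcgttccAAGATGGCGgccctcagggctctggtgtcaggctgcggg
Mrps18c: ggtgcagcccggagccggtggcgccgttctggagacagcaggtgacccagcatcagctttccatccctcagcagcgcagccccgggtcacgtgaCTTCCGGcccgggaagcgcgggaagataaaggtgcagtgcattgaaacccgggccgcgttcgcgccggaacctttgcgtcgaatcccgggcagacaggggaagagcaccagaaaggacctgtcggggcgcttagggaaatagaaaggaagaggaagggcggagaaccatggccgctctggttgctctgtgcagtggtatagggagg
Mrpl9: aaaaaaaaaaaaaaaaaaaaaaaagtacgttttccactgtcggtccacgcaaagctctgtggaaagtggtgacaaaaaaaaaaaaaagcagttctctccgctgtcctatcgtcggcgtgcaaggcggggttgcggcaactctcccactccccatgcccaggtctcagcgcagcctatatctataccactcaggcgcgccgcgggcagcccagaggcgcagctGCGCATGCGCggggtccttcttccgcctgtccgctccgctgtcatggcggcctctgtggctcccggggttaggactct

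The table of RefSeq promoters held 67 of the 76 members. Mrpl13, Mrpl15, Mrpl19, Mrpl38, Mrpl4, Mrpl54, Mrps28, Mrps34 and Mrps35 were not matched. At least 1 of the 3 motifs stood in a window of 34 of the 67 members (50.7%). The shares were 26.6% of the 9194 tested genes in the table and 13.6% of all 27025 genes in it. A gene with several RefSeq starts, such as Mrpl48, has several windows and was counted when any of them held a match. The ETS core was the most frequent, with 24 members (35.8%), against 19.7% of tested genes and 9.93% of all genes. The NRF1 core stood in 8 members (11.9%), against 5.99% of tested genes and 3.05% of all. The YY1 motif also stood in 8 members (11.9%), against 3.45% of tested genes and 1.64% of all. Taking the first listed window of each gene, members had a median GC content of 58.0%, against 60.7% for tested genes. The median log2 fold change between the populations was -0.09 over the 34 members with a match and -0.13 over the 33 without. A match here describes letters in a window, and no binding was measured.

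By the quasi-likelihood test of edgeR, no member passed an adjusted p of 0.05, with 0 higher and 0 lower in NKG2D+ cells. Over all genes tested, 1.65% were called higher and 0.363% lower, so counts of 0 among 76 are near that background. At an unadjusted p under 0.05, 8 members were lower and 0 higher in NKG2D+ cells, against 8.62% lower and 12.5% higher among all genes. Limma-voom called 0 members, and DESeq2 called 1 lower, Mrps18b, and 0 higher, where it called 3.47% of all genes lower and 7.89% higher. Every NKG2D+ library lay below every NKG2D- library for 25 of 76 members, against 14.1% of all genes. No member had every NKG2D+ library above every NKG2D- library, against 15.1% of all genes.

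Most members stood slightly lower in NKG2D+ cells. Log2 fold changes of NKG2D+ over NKG2D- cells were negative for 65 members and positive for 11, so 85.5% were negative, against 52.8% of all genes tested. Their median was -0.11 (interquartile range -0.18 to -0.03), a percent change of -7.31%, against a median of -0.01 over all genes. Among the 5276 genes within the members' range of mean CPM, 9.29 to 66.6, the median was -0.02 and 56.3% were negative. Single members ran from -0.43 to 0.07. Members were not independent of each other, and the median carries no test. When CPM were scaled by library size alone, without TMM factors, 45 of 76 members were negative. Their median was then -0.03, against 0.07 over all genes. A change of scaling moves all genes nearly alike, so the gap to all genes could hardly change and is no check.

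**Figure D1:**
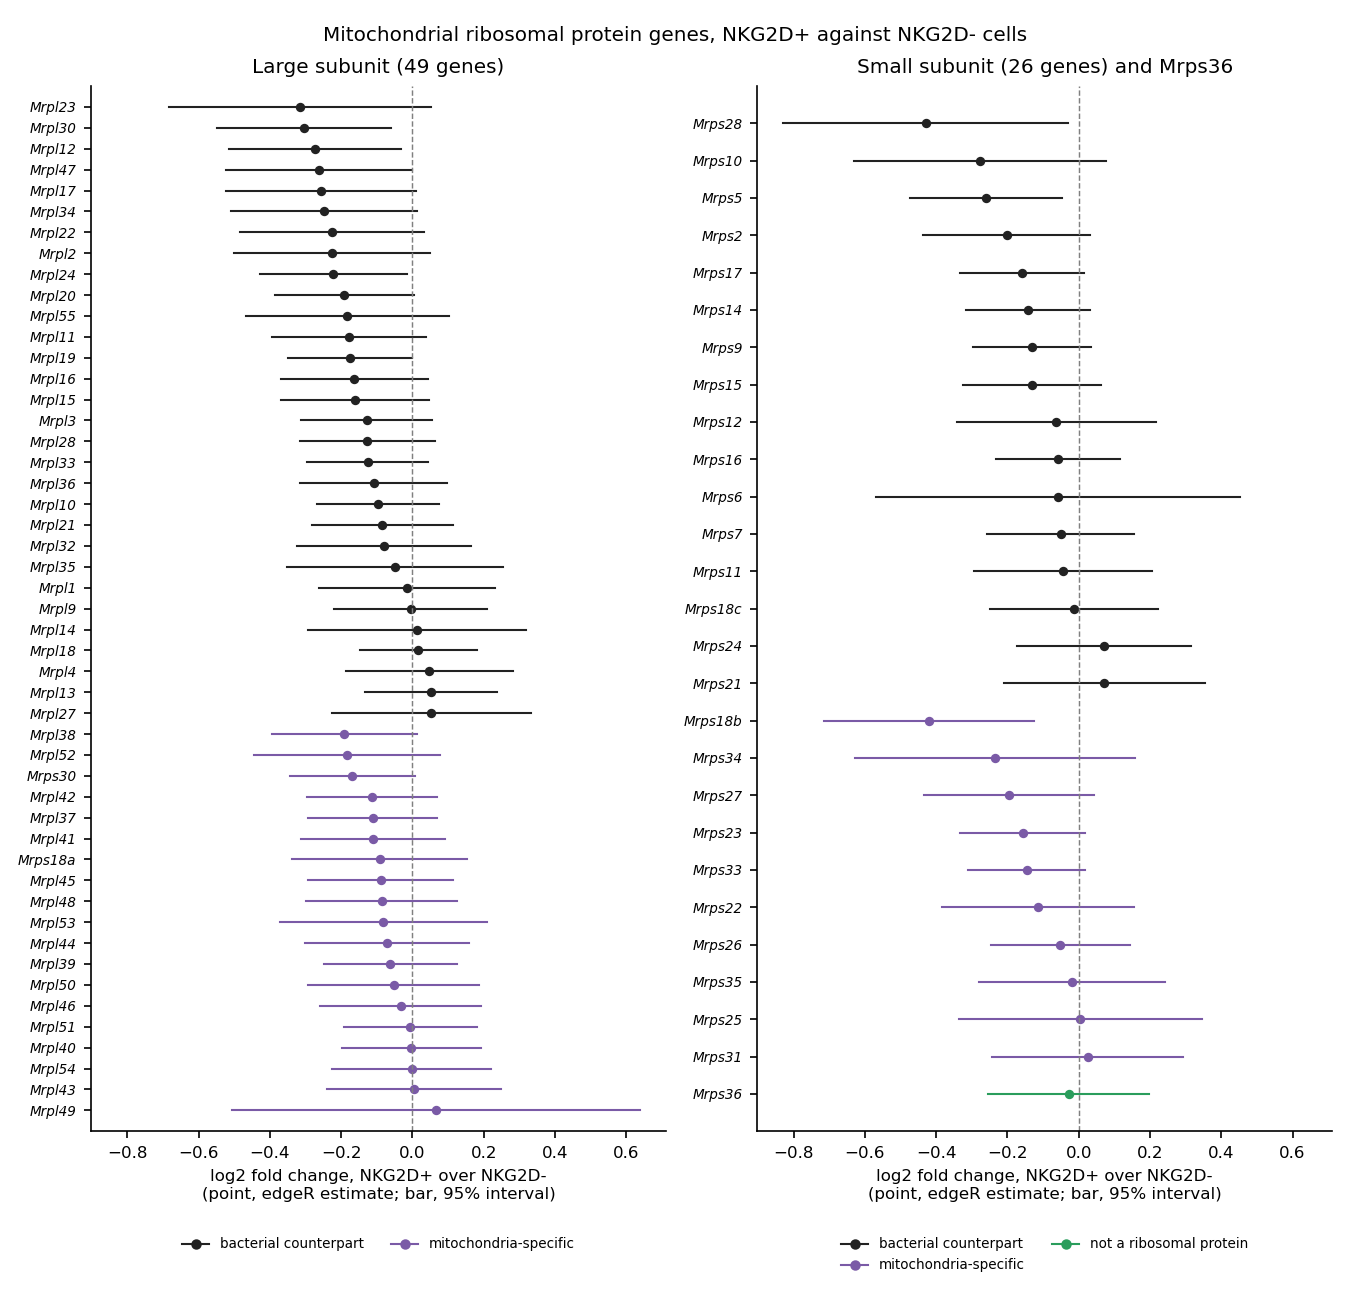
Log2 fold change of NKG2D+ over NKG2D- cells for each of the 76 genes (x axis), with its edgeR estimate as a point and its 95% interval as a bar. Genes of the large subunit stand on the left and genes of the small subunit with Mrps36 on the right, coloured by class. Points run from -0.43 to 0.07, and 8 intervals lie wholly below 0.

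The intervals limit how large a difference these libraries leave room for. The 95% interval lay within 1.5-fold in both directions for 70 of 76 members, against 56.9% of all genes. It was wholly above a fall of 1.5-fold for 71 members. Mrpl49, which encodes a large-subunit protein, had the widest interval, from -0.51 to 0.64 on the log2 scale.

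In summed CPM, all 76 genes together had 1916, 1972 and 1813 in NKG2D+ libraries 1, 2 and 3, against 2153, 2021 and 2013 in NKG2D- libraries 1, 2 and 3. The means were 1900 ± 80.7 in NKG2D+ and 2062 ± 78.7 in NKG2D- cells (SD, n = 3 each), a ratio of 0.921. With TMM scaling the populations did not overlap, and the highest NKG2D+ sum, library 2, lay close under the lowest NKG2D- sum, library 3. Scaled by library size alone they overlapped, with NKG2D- library 3 below NKG2D+ libraries 1 and 2. Ratios within same-numbered libraries were 0.890, 0.976 and 0.901. The median log2 ratio of the members was -0.16, -0.04 and -0.14 in pairs 1, 2 and 3.

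**Figure D2:**
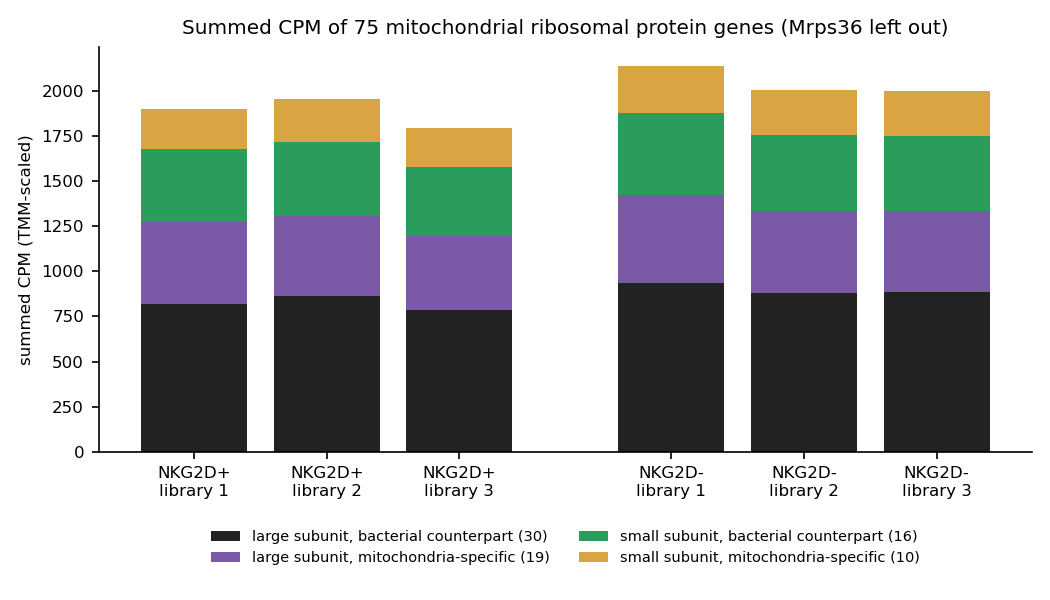
Summed CPM of 75 genes in each library (y axis), with Mrps36 left out, NKG2D+ libraries left and NKG2D- libraries right, stacked by subunit and class. With the TMM scaling used here, NKG2D+ bars are lower than NKG2D- bars, and NKG2D+ library 2 comes nearest to them.

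Large and small subunit genes had like medians. The 49 large-subunit genes had a median log2 fold change of -0.11, and 42 were negative. The 26 small-subunit genes had a median of -0.12, and 22 were negative. Here Mrps30 and Mrps18a count as large-subunit genes, since their products sit in that subunit despite their names. Mrps18a and Mrps18b are counted as mitochondria-specific, although they are related to bacterial S18. Within the large subunit, 30 genes with a bacterial counterpart had a median of -0.14 and 19 mitochondria-specific genes one of -0.08. Within the small subunit, 16 genes with a bacterial counterpart had a median of -0.10 and 10 mitochondria-specific genes one of -0.13. Single libraries moved these medians. Without NKG2D+ library 3 the large mitochondria-specific median was -0.05 and that of small-subunit genes with a bacterial counterpart -0.06. The small-subunit median for genes with a bacterial counterpart was -0.15 without NKG2D- library 2 or without both libraries of replicate 2. Differences between the classes were not tested. Mrps36, whose product is now placed in the 2-oxoglutarate dehydrogenase complex of the citric acid cycle, had 17.1, 14.9 and 16.6 CPM in NKG2D+ cells, against 17.1, 15.7 and 16.8 CPM in NKG2D- cells.

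The largest differences were in small-subunit genes. Mrps18b, 1 of the 3 S18 relatives, had 22.0, 30.9 and 27.5 CPM in NKG2D+ cells, against 36.3, 35.4 and 35.8 CPM in NKG2D- cells. All NKG2D+ values lay below all NKG2D- values, and the NKG2D+ libraries were far more spread. A log2 fold change of -0.42 (SE 0.12) did not pass edgeR's quasi-likelihood test (adjusted p = 0.127). DESeq2 gave -0.42 with an adjusted p of 0.0372. By the gene models of GENCODE M21, 59.1% of its exon bases also lie in exons of Gm16279, and the pseudogene Gm13552 matches it at 99.8% over 417 bases. Reads of such a locus may have been set aside or shared, and the counting strand is not given, so its value is uncertain.

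Its relatives differed less between the populations. Mrps18a, a large-subunit gene, had 18.1, 18.8 and 16.6 CPM in NKG2D+ cells, against 20.3, 17.0 and 19.8 CPM in NKG2D- cells. Mrps18c, a small-subunit gene and the counterpart named for bacterial S18, had 15.95, 16.3 and 14.6 CPM in NKG2D+ cells, against 14.7, 17.0 and 15.5 CPM in NKG2D- cells. Both overlapped between the populations, with log2 fold changes of -0.09 (SE 0.10) and -0.01 (SE 0.10). Whether the 3 relatives differ from each other in response was not tested.

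**Figure D3:**
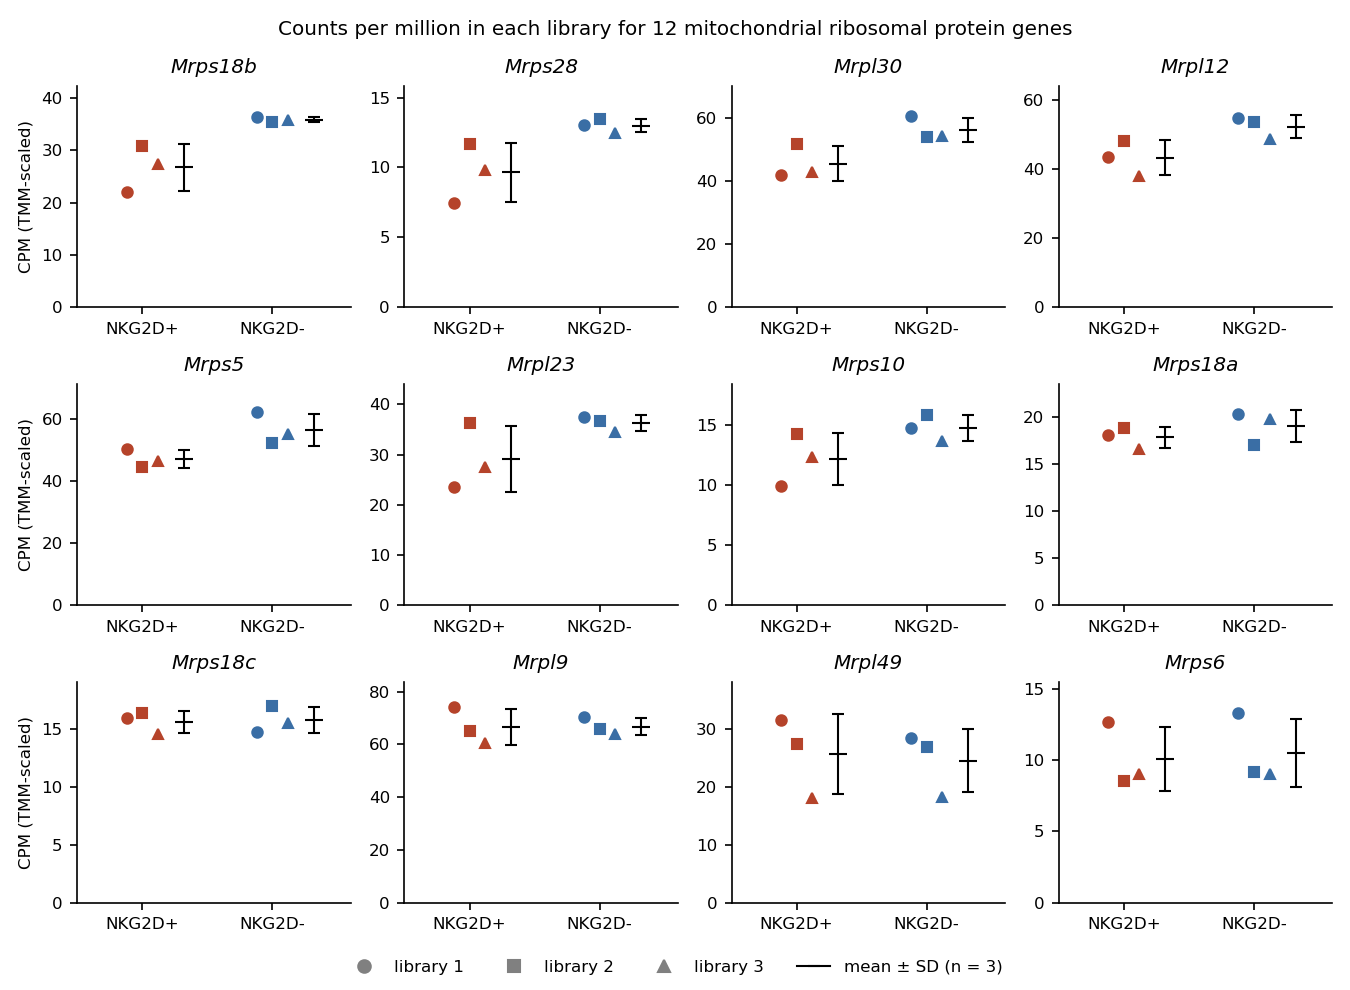
CPM in each library (y axis, from 0) for 12 genes, with NKG2D+ libraries left in red and NKG2D- libraries right in blue. Symbols give the library number, and the black bar is the mean ± SD of 3 libraries. In Mrps18b, Mrps28 and Mrpl23 the NKG2D+ library 2 is the nearest to the NKG2D- libraries, and in Mrpl49 and Mrps6 the libraries go by number rather than by population.

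Mrps28, a small-subunit gene, had 7.45, 11.7 and 9.82 CPM in NKG2D+ cells, against 13.0, 13.5 and 12.5 CPM in NKG2D- cells. Of all members it had the most negative log2 fold change, -0.43 (SE 0.17, edgeR adjusted p = 0.211). Mrps5, the counterpart of bacterial S5, had 50.4, 44.5 and 46.6 CPM in NKG2D+ cells, against 62.2, 52.3 and 55.1 CPM in NKG2D- cells. Neither overlapped between the populations. For Mrps5 the log2 fold change was -0.26 (SE 0.09, edgeR adjusted p = 0.166). Mrps10, the counterpart of bacterial S10, had 9.92, 14.2 and 12.3 CPM in NKG2D+ cells, against 14.7, 15.8 and 13.6 CPM in NKG2D- cells, and the populations overlapped.

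Of the 49 large-subunit genes, 16 had every NKG2D+ library below every NKG2D- library, against 14.1% of all genes. Mrpl30 and Mrpl12 were among them. Mrpl30, the counterpart of bacterial L30, had 42.1, 51.9 and 42.8 CPM in NKG2D+ cells, against 60.7, 53.9 and 54.4 CPM in NKG2D- cells. Mrpl12, the counterpart of the stalk protein L7/L12, had 43.6, 48.2 and 38.1 CPM in NKG2D+ cells, against 54.7, 53.7 and 48.6 CPM in NKG2D- cells. Their log2 fold changes were -0.30 (SE 0.10) and -0.27 (SE 0.10), with adjusted p of 0.160 and 0.194 by edgeR. Mrpl23, the counterpart of bacterial L23, had 23.5, 36.3 and 27.5 CPM in NKG2D+ cells, against 37.6, 36.7 and 34.5 CPM in NKG2D- cells. Its library 2 values were nearly equal in the 2 populations, and its log2 fold change was -0.32 (SE 0.16, edgeR adjusted p = 0.305). A pseudogene transcript, Mrpl23-ps1, matches it at 100% over 507 bases.

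NKG2D+ library 2 bore on these values. Without it, edgeR called 4 members lower, where it called 3.1% of the 13178 genes then tested. These were Mrps18b (log2 fold change -0.53, adjusted p = 0.0339), Mrpl23 (-0.51, adjusted p = 0.0297), Mrpl30 (-0.41, adjusted p = 0.0340) and Mrps34 (-0.45, adjusted p = 0.0446), all by edgeR's quasi-likelihood test. Mrps34, a mitochondria-specific small-subunit gene, had 16.3, 25.3 and 18.1 CPM in NKG2D+ cells, against 22.6, 24.7 and 23.0 CPM in NKG2D- cells. Over the whole table the calls then numbered 1312 genes, against 261 with all libraries.

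Among the members with the highest CPM, Mrpl9, Mrpl4 and Mrpl10 overlapped between the populations. Mrpl9 had 74.0, 65.0 and 60.6 CPM in NKG2D+ cells, against 70.5, 65.7 and 64.1 CPM in NKG2D- cells. Its fold change lay between 0.859 and 1.16 (95% interval). Mrpl4 had 59.4, 57.6 and 52.3 CPM in NKG2D+ cells, against 61.6, 52.4 and 49.9 CPM in NKG2D- cells. Mrpl10, which carries the stalk, had 48.7, 54.2 and 49.8 CPM in NKG2D+ cells, against 55.3, 56.0 and 52.1 CPM in NKG2D- cells. Mrpl10 was lower in NKG2D+ cells in all 3 pairs, with a log2 fold change of -0.10 (SE 0.07, edgeR adjusted p = 0.497). The members with the fewest counts were Mrpl47, the counterpart of bacterial L29, with 7.97 to 8.90 CPM in NKG2D+ and 9.60 to 10.7 CPM in NKG2D- cells, Mrpl55 and Mrpl35.

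The positive end of the range was close to 0. The 6 most positive were Mrps21, Mrps24, Mrpl49, Mrpl27, Mrpl13 and Mrpl4, at 0.05 to 0.07 on the log2 scale, and the populations overlapped in each. Mrps24, the counterpart of bacterial S3, was the member that stood higher in NKG2D+ cells in all 3 pairs, with 36.0, 34.5 and 31.1 CPM, against 35.8, 31.9 and 29.0 CPM in NKG2D- cells. In contrast, 41 of 76 members were lower in all 3 pairs. Of all 12951 genes tested, 3772 were lower and 3356 higher in all 3 pairs.

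Mrpl49 and Mrps6 varied more with the library number than with the population. Mrpl49 had 31.6, 27.4 and 18.1 CPM in NKG2D+ libraries 1, 2 and 3, against 28.5, 26.9 and 18.4 CPM in NKG2D- libraries 1, 2 and 3. Mrps6, the counterpart of bacterial S6, had 12.7, 8.57 and 9.003 CPM in NKG2D+ libraries, against 13.3, 9.18 and 9.03 CPM in NKG2D- libraries. In both genes library 1 was the highest of each population, and library 3 of Mrpl49 was low in both. Averaged over the populations, the range across the numbers was 0.70 for Mrpl49 and 0.52 for Mrps6 on the log2 scale. Over the members its median was 0.15, against 0.21 over all genes. In 41 of 76 members it was larger than the difference between populations, a share not taken over all genes. A range across 3 numbers tends to exceed a difference of 2 means without any effect of either. This count therefore cannot tell which varied more. Mouse and sequencing lane cannot be told apart as its source.

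Per kilobase of exon, members spanned a wide range of levels. Median levels were 16.7 CPM per kilobase in NKG2D+ and 17.4 in NKG2D- cells, with extremes 32.9-fold and 34.2-fold apart. Mrpl33, the counterpart of the small bacterial protein L33, was the highest at 78.7 ± 4.21 CPM per kilobase in NKG2D+ and 85.8 ± 2.45 in NKG2D- cells (SD, n = 3 each). Mrpl52, a mitochondria-specific gene, followed at 56.0 ± 6.02 in NKG2D+ and 63.6 ± 5.82 in NKG2D- cells. Mrpl30 came next at 46.9 ± 5.65 and 57.9 ± 3.92, in the same order of populations. The lowest were Mrpl17 in NKG2D+ cells and Mrps25 in NKG2D- cells. Lengths are unions of all annotated exons, 7605 bases for Mrpl17 and 478 for Mrpl33, so genes with long alternative ends appear low. The rank order was nearly the same in both populations (Spearman's rho 0.99 across 76 genes that share these libraries and lengths).

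**Figure D4:**
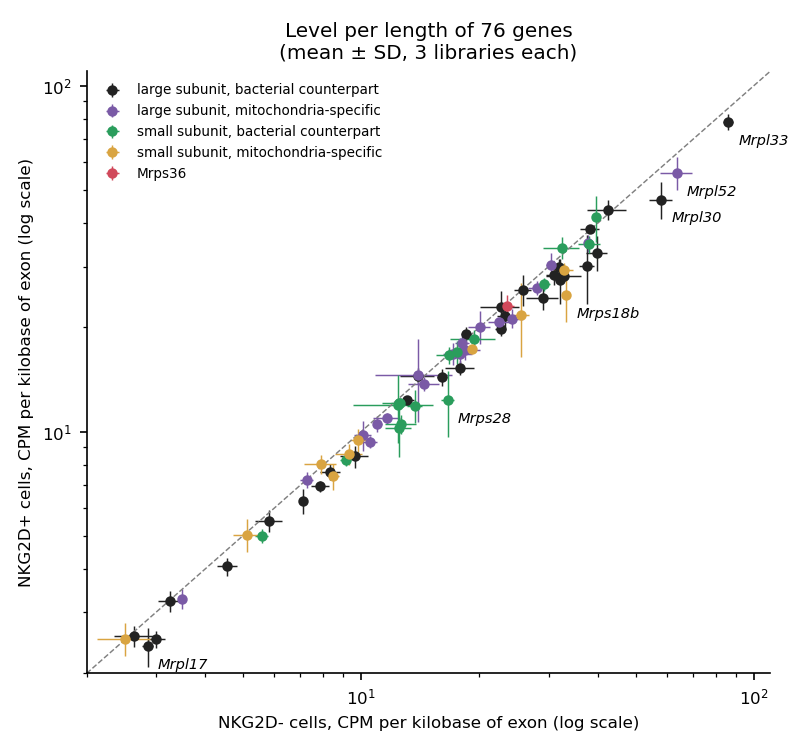
Level per kilobase of exon of the 76 genes in NKG2D+ cells (y axis) against NKG2D- cells (x axis), both as mean ± SD of 3 libraries on log scales. The dashed line marks equal levels. Points follow the line over a 32.9-fold range in NKG2D+ cells, most of them a little below it.

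Members lie on 17 chromosomes, with no more than 10 on 1 chromosome (11) and 0 on X or Y. Of the 76, 17 (22.4%) share a start region with another protein-coding gene read the other way, within 1000 bases upstream, against 10.3% of 11114 tested coding genes. Mrps18b stands beside Ppp1r10, which had 57.6, 55.2 and 61.0 CPM in NKG2D+ cells, against 61.3, 57.0 and 56.9 CPM in NKG2D- cells. Mrpl30 stands beside Mitd1, with 35.6, 37.3 and 39.8 CPM in NKG2D+ and 39.8, 39.7 and 43.4 CPM in NKG2D- cells. Of 16 such neighbours tested, 10 (62.5%) were negative, against 52.8% of all genes, with a median log2 fold change of -0.09. EdgeR called 0 of the 16, near the 1.65% called higher and 0.363% called lower over all genes. Exons of 25 members overlap those of another gene. In 15 the overlap covers more than 10% of their bases, namely Mrps18b, Mrps25, Mrpl53, Mrpl19, Mrpl24, Mrps6, Mrpl43, Mrpl13, Mrps27, Mrpl33, Mrps18c, Mrps30, Mrpl12, Mrpl10 and Mrpl47. A pseudogene transcript at 95% identity or more is annotated for 19, namely Mrps5, Mrps10, Mrps14, Mrps16, Mrps18b, Mrps21, Mrps25, Mrps26, Mrps33, Mrps36, Mrpl21, Mrpl22, Mrpl23, Mrpl27, Mrpl32, Mrpl41, Mrpl42, Mrpl48 and Mrpl51. Counts of these members depend on how shared reads were treated.

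Related genes of mitochondrial translation also had negative medians and no calls by edgeR. Dap3, a GTP-binding protein of the small subunit, and 6 other mitoribosomal proteins under other names had a median log2 fold change of -0.13. Dap3 had 65.2, 61.8 and 62.4 CPM in NKG2D+ cells, against 76.3, 68.8 and 68.9 CPM in NKG2D- cells. This came to -0.18 on the log2 scale (SE 0.07, edgeR adjusted p = 0.218). The 15 translation factors had a median of -0.14 with 0 called, the 23 assembly factors -0.17 with 0 called and the 20 mitochondrial aminoacyl-tRNA synthetases -0.22 with 0 called. The 11 genes of mitochondrial DNA transcription and replication had a median of -0.23 with 0 called, and the 13 regulators of mitochondrial biogenesis -0.02 with 0 called. In these 5 lists edgeR gave 1, 5, 3, 6 and 2 genes lower and 0 higher at an unadjusted p under 0.05, DESeq2 called 0, 2, 0, 1 and 1 lower, and limma-voom called 0. Over all genes, 8.62% were lower at that unadjusted threshold by edgeR and 3.47% were called lower by DESeq2.

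The gene with the smallest p is given for each of these 5 lists as a value. Noa1, a GTPase of mitoribosome assembly, had 34.2, 39.3 and 35.5 CPM in NKG2D+ cells, against 48.6, 42.8 and 45.3 CPM in NKG2D- cells (edgeR adjusted p = 0.1002). Lrpprc, which binds mitochondrial mRNAs, had 79.6, 102 and 99.7 CPM in NKG2D+ cells, against 112, 110 and 126 CPM in NKG2D- cells. Tars2, the mitochondrial threonyl-tRNA synthetase, had 47.9, 62.1 and 60.7 CPM in NKG2D+ cells, against 72.0, 67.1 and 71.6 CPM in NKG2D- cells. In these 3 genes, as in Tfb2m and Myc below, no NKG2D+ value reached an NKG2D- value. The share over all genes was 14.1%, and these genes were picked by smallest p, which favours such separation. Tfb2m, a factor of mitochondrial transcription, had 30.6, 32.1 and 33.2 CPM in NKG2D+ cells, against 40.4, 37.8 and 36.6 CPM in NKG2D- cells. Myc, a transcription factor of cell growth, had 85.3, 149 and 123 CPM in NKG2D+ cells, against 221, 165 and 164 CPM in NKG2D- cells. Their adjusted p by edgeR were 0.178 for Lrpprc, 0.177 for Tars2, 0.118 for Tfb2m and 0.174 for Myc.

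Cytosolic ribosomal proteins, which form the ribosome outside mitochondria, stood further apart than the members. The 83 tested genes had a median log2 fold change of -0.39, and 80 were negative. Of them 0 were called by edgeR and 71 were lower at an unadjusted p under 0.05, against 8.62% of all genes. DESeq2 called 46 lower, against 3.47% of all genes, and limma-voom 0. Summed over 85 genes, the list had 85457, 115829 and 89904 CPM in NKG2D+ libraries, against 138023, 129039 and 120765 CPM in NKG2D- libraries, with NKG2D+ library 2 again nearest. The difference between the 2 kinds of ribosome was not tested.

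Cell-cycle genes went the other way. Of 18 tested, 7 were called higher in NKG2D+ cells and 0 lower, against 1.65% higher and 0.363% lower over all genes. Their median log2 fold change was 0.72. Mki67, a proliferation marker, had 94.8, 77.5 and 84.7 CPM in NKG2D+ cells, against 41.9, 40.4 and 36.1 CPM in NKG2D- cells. It rose with a log2 fold change of 1.12 (SE 0.10, edgeR adjusted p = 0.00890). Top2a and Kif11, a topoisomerase and a motor of cell division, also rose, with log2 fold changes of 0.87 and 0.98. With library number as a replicate block the list had 3 calls. It had 0 without NKG2D+ library 3, without NKG2D- library 3 or without both, where calls over all genes fell to 15, 8 and 0. Without NKG2D- library 1 or NKG2D- library 2 it had 1, where calls over all genes fell to 21 and 13. Calls numbered 3 without both libraries of replicate 2 and 8 without both of replicate 1. They numbered 7 without NKG2D+ library 1 and 10 without NKG2D+ library 2. DESeq2 called 13 of the list higher and limma-voom 5.

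**Figure D5:**
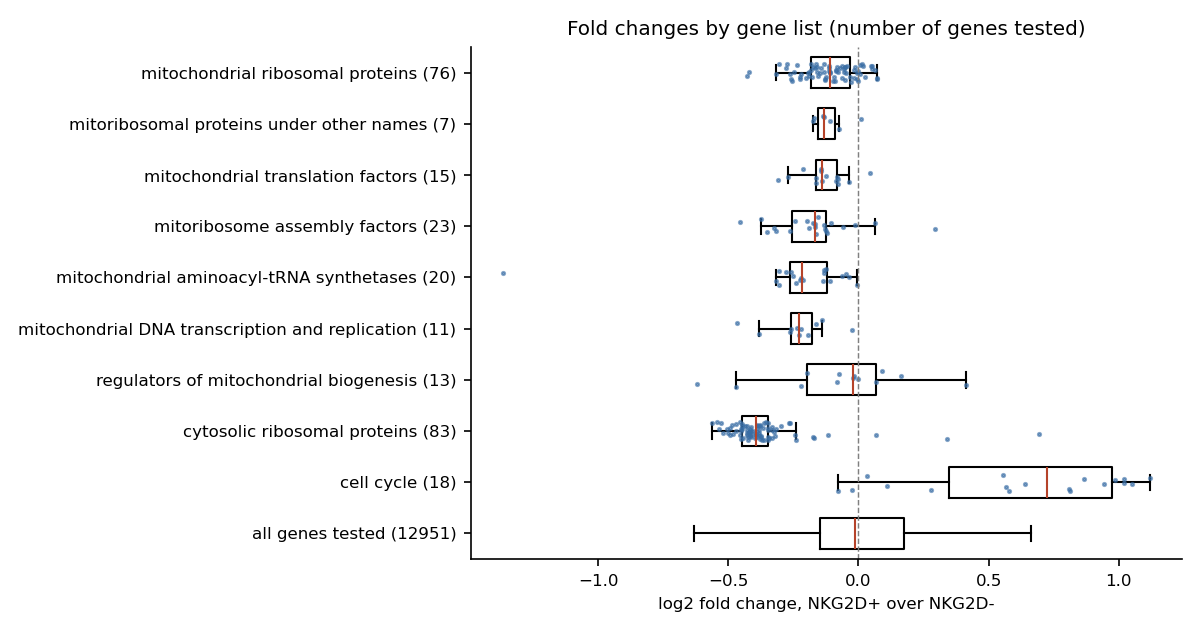
Log2 fold change of NKG2D+ over NKG2D- cells (x axis) for each gene list, with 1 point per gene. Boxes give the quartiles, red lines the medians and whiskers reach to 1.5 times the interquartile range; for all genes tested the points are left out. Except for the regulators of biogenesis, whose median is -0.02, the mitochondrial lists lie a little left of 0, cytosolic ribosomal proteins further left and cell-cycle genes to the right.

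Markers of other cells differed in level between the libraries. The summed CPM of 14 B cell markers was 739, 490 and 548 in NKG2D+ libraries, against 180, 385 and 332 in NKG2D- libraries, and 13 of 14 genes were positive. The 6 plasma cell markers summed to 144, 56.1 and 92.3 CPM in NKG2D+ libraries, against 55.6, 49.6 and 50.2 CPM in NKG2D- libraries. Nearly all of this sum came from Xbp1 (77.2, 37.1 and 50.1 CPM in NKG2D+ libraries) and Irf4 (64.8, 17.6 and 38.1 CPM). Sdc1, Igj, Derl3 and Tnfrsf17 had at most 3.19 CPM in any library. The 19 myeloid markers summed to 53.7, 27.7 and 39.9 CPM in NKG2D+ libraries, against 19.6, 27.0 and 25.6 CPM in NKG2D- libraries, and Cd14, Fcgr1 and Emr1 were at 0 in NKG2D- library 1. Of the 16 myeloid markers tested, 11 were positive and 5 negative. The 5 CD4 T cell markers summed to 135, 49.4 and 70.3 CPM in NKG2D+ libraries, against 64.5, 68.1 and 58.6 CPM in NKG2D- libraries. They were split, with 2 positive and 3 negative. Cd40lg had 47.7, 3.57 and 6.90 CPM in NKG2D+ libraries, against 2.09, 1.93 and 1.36 CPM in NKG2D- libraries. Foxp3 had 7.27, 2.45 and 4.94 CPM in NKG2D+ libraries, against 20.8, 16.2 and 14.4 CPM in NKG2D- libraries. The 7 NK cell markers, led by Eomes, which CD8 T cells also express, summed to 146, 365 and 288 CPM in NKG2D+ libraries, against 289, 285 and 308 CPM in NKG2D- libraries. Of the 5 NK markers tested, 4 were positive and 1, Eomes, was negative. Among all 7 of them Klra4 was at 0 in every library. Klre1, an NK receptor gene, was the 1 marker of these lists called by edgeR (adjusted p = 0.0498). In the B cell, plasma cell, myeloid and CD4 lists NKG2D+ library 1 was the highest and NKG2D+ library 2 the lowest of its population. The part of these cells in the members' values was not tested.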

How the data were processed

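RNA was sequenced from 3 NKG2D+ and 3 NKG2D- libraries. The deposited files hold read counts per gene symbol, which the authors left without normalisation, for 23284 genes and 5 summary counts. Per the submitters' processing notes, CASAVA 1.8.2, TopHat2 2.0.4 and the build mm9 were used. The counting program, annotation and strand setting are points not given in the sources used here. Library sizes exclude the summary counts, which show 14.0% to 15.9% of reads outside annotated genes, 19.7% to 26.2% aligned to several places and 0.715% to 0.836% overlapping more than 1 gene.

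Counts were tested in R 4.3.3 with edgeR 4.0.16 (quasi-likelihood F-test, two-sided, TMM, robust fits, filterByExpr with a minimum count of 10 and total of 15), with group as the only term. Benjamini-Hochberg adjustment covered the 12951 genes tested, and calls were made under 0.05. CPM use TMM-scaled library sizes, and 0.5 CPM was added before the logarithm for the pairing check and the ranges across library numbers. Limma-voom 3.58.1, DESeq2 1.42.0, other scalings, no filter, a replicate block and left-out libraries were alternatives. The fit was tested on simulated data. Within a population no library was a copy of another: chi-square per degree of freedom was 41.8 to 256.

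Libraries with the same number were taken as coming from the same mouse, from the series description and the labels' numbers. Their deviations from the group means correlated across genes with r = 0.25, 0.20 and 0.38, against -0.21 to 0.02 for other pairs. Deviations within a population cancel out, so a positive r for same numbers pulls the others down. The values of the other pairs are thus no independent evidence. Genes are not independent replicates. Same-numbered libraries also share a lane tag.

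Members and gene lists were chosen with earlier results of these data known. Named genes are the 6 most positive and 6 most negative members that averaged 5 CPM or more in the higher population, the 5 with the highest and 3 with the lowest mean CPM, the S18 relatives, Mrps36, members under other names, and in each other list up to 3 called genes or that of smallest p. Some genes that this naming takes are left unreported. Mrps34, Mrps6, Mrpl33, Mrpl52, Mrpl17, Mrps25, Ppp1r10, Mitd1, Klre1, Lars2, Pprc1, Nrf1, Gabpa and Yy1 were named after their values were seen. The list of cytosolic ribosomal proteins leaves out kinases and other genes whose symbols begin alike. Gene lengths, overlaps, neighbours and pseudogenes come from GENCODE M21 on GRCm38, which is not the build of the files.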

Additional observations from a re-analysis of the deposited data

How the results depend on the processing

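Of 448 values of 28 named genes under 16 alternatives, 415 kept their direction and their side of the threshold, 29 changed sign and 4 passed the threshold. With library size only in place of TMM, the members' median was -0.028, the class medians -0.062 (large, bacterial counterpart), -0.0028 (large, mitochondria-specific), -0.015 (small, bacterial counterpart) and -0.047 (small, mitochondria-specific), and the log2 ratio of summed CPM -0.036. Signs then turned for Mrpl9 (0.078), Mrpl35 (0.035), Mrps18c (0.067), Mrps36 (0.057) and Gadd45gip1 (0.0077), all with values near 0. The other scalings left 63 of 76 members negative. DESeq2 called 1 member lower and 13 genes of the related lists higher and 50 lower. The replicate block gave 3 related genes higher, 0 members and no other change of a call. It made 68 calls over all genes, limma-voom 83, DESeq2 1442 and edgeR without the block 261. Leaving out 1 library or both libraries of a number, alternatives which include arms of 2 libraries, gave 0 to 4 members lower, 0 to 10 related genes higher and 0 to 71 lower (68 of the 71 being cytosolic ribosomal proteins, without NKG2D+ replicate 2). Counts of calls over all genes then ran between 0, without both libraries of replicate 3, and 1312, without NKG2D+ replicate 2. The members' median stayed between -0.14 and -0.08, and the class medians between -0.19 and -0.12 (large, bacterial counterpart), -0.11 and -0.053 (large, mitochondria-specific), -0.15 and -0.062 (small, bacterial counterpart) and -0.16 and -0.087 (small, mitochondria-specific). Klrk1 ranged between 3.16 and 3.42, and was 3.33 with an adjusted p of 0.105 by edgeR without both libraries of replicate 3. Members with values near 0 crossed it when libraries were left out, with ranges of -0.058 to 0.15 for Mrps21, -0.11 to 0.27 for Mrpl49, -0.0027 to 0.15 for Mrps24, -0.031 to 0.10 for Mrpl27, -0.0099 to 0.095 for Mrpl13, -0.017 to 0.14 for Mrpl4, -0.086 to 0.061 for Mrpl9, -0.12 to 0.037 for Mrpl35, -0.074 to 0.042 for Mrps18c, -0.068 to 0.030 for Mrps36 and -0.042 to 0.10 for Aurkaip1. The causes were not tested. Without Mrps36, and with the 7 mitoribosomal proteins under other names added, 0 of 82 genes were called and the median was -0.11. With 3 libraries a population, the 95% interval lay within 1.5-fold for 70 of 76 members.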

Other observations

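Lars2, which encodes the mitochondrial leucyl-tRNA synthetase, was picked out after its values were seen. It had 2146, 3624 and 3539 CPM in NKG2D+ libraries 1, 2 and 3, against 7880, 3024 and 13053 CPM in NKG2D- libraries 1, 2 and 3. The populations overlapped, and the NKG2D- libraries were far more spread than the NKG2D+ libraries. Its log2 fold change was -1.36 (SE 0.50), with an adjusted p of 0.189 by edgeR. The cause was not tested, and read positions were not used here. Pprc1, a coactivator of mitochondrial biogenesis, averaged 104 CPM in NKG2D+ cells and 144 CPM in NKG2D- cells. It stood at -0.47 on the log2 scale, with an adjusted p of 0.278 by edgeR, and no NKG2D+ value reached an NKG2D- value. Nrf1 averaged 52.8 CPM in NKG2D+ cells and 50.5 CPM in NKG2D- cells, Gabpa 99.7 and 101 CPM in the same order, and Yy1 111 and 118 CPM. None of these 3 passed the test, and their log2 fold changes were 0.07, -0.02 and -0.08.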
